A study of Mus musculus with 12 samples.

Results

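The nuclear genes of the mitochondrial respiratory chain were followed, complex by complex, in mouse hematopoietic stem cells (HSCs) of 6 sample groups on Illumina bead arrays. A gene was taken when its probe carried a single platform symbol of a subunit family: Ndufa, Ndufb, Ndufc, Ndufs and Ndufv for complex I, Sdha to Sdhd for complex II, Uqcr for complex III, Cox4 to Cox8 for complex IV and Atp5 for complex V. The probe also needed a detection p-value, the scanner's measure of signal over negative controls, under 0.05 on at least 2 arrays, and the probe with the highest mean stood for its gene. These families had 108 probes for 76 genes, and 68 genes passed, out of 9791 genes that passed in all. The 68 were 29 of 32 genes of complex I, 3 of 4 of complex II, 7 of 7 of complex III, 13 of 17 of complex IV and 16 of 16 of complex V. Of them, 51 were detected on all 12 arrays. The 8 genes that did not pass were Ndufb11, Ndufb7 and Ndufs1 of complex I, Sdha of complex II, and Cox7a1, Cox7b2, Cox8b and Cox8c of complex IV.

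The series addresses competition between HSCs with mutant and normal p53 after irradiation, and every group was 2 arrays that the labels call biological replicates. The mp53 winners were GFP-positive R26-mp53 HSCs, and the WT losers the GFP-negative wild-type HSCs, of mosaic mice killed 3 weeks after 2.5 Gy. The non-competing irradiated groups came from fully recombined R26-mp53 mice and from WT mice, at the same dose and time. Unirradiated mp53 and unirradiated WT HSCs came from mosaic mice with no treatment. All groups were sorted from bone marrow on the same gate (c-kit+, Sca-1+, CD150+, CD48-, no lineage markers), 200 cells an array. In the mosaic groups alone, GFP status came with the genotype. Whether a pair of replicates goes back to different animals is not said in the labels. Eif2s3y, a gene of the Y chromosome, was 4.33 and 7.28 in losers, 4.24 and 8.35 in non-competing mp53 cells, 9.42 and 4.22 in unirradiated mp53 cells and 9.14 and 4.23 in unirradiated WT cells, so the arrays of these 4 pairs differed in it, while both arrays were at 8.29 or above in winners and non-competing WT cells. The p-values then cover the spread between these arrays, part of which may be technical. Ages, strain, and what drove the recombination were not found in the labels.

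The respiratory chain sits in the inner mitochondrial membrane. Complex I takes electrons from NADH and complex II takes them from succinate, complex III passes them from ubiquinol to cytochrome c, and complex IV hands them to oxygen. Complexes I, III and IV pump protons, and complex V, the ATP synthase, uses their return flow to make ATP. HSCs are known for relying little on this chain and much on glycolysis at rest, and for using it more once they are activated. A few subunits of complexes I, III, IV and V are encoded by mitochondrial DNA, and 0 of the 26 mitochondrial symbols looked for were on the array, so the values below are of nuclear genes alone.

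Replicate 1 and replicate 2 of every group were deposited in separate tables. Depth in the sense of signal differed among arrays: the 95th percentile of raw intensity was 82.3 on unirradiated mp53 replicate 1 and 107 on loser replicate 1, and at most 1079 on winner replicate 2. Between 8968 and 13489 of 46632 probes were detected on an array. The correlation over all kept probes was 0.781 to 0.923 between the 2 arrays of a group, with a median of 0.876, below the median of 0.929 between arrays of different groups in one table. Markers of other blood cells also moved with the groups. Against losers, winners had higher fitted values for 18 of 18 granulocyte and monocyte genes, 13 of 14 erythroid, 9 of 10 B lineage, 6 of 8 macrophage and dendritic and 8 of 8 T and NK genes, for 3 of 10 megakaryocyte genes, for 5 of 10 stromal and endothelial genes, and for 0 of 19 genes of HSC identity. The median difference was 2.25 for the granulocyte and monocyte genes and -2.26 for those of HSC identity. Winners minus unirradiated mp53 cells had 18 of 18 granulocyte and monocyte, 14 of 14 erythroid and 0 of 19 HSC identity genes higher. Losers minus non-competing WT cells went the other way, with 0 of 18, 1 of 14 and 18 of 19 higher. Cd48, a marker the gate was to leave out, stood at 8.36 and 6.27 on winner arrays, against 4.95 and 5.04 on loser arrays. It was 4.67 and 5.96 in non-competing mp53 cells, 6.83 and 6.05 in non-competing WT cells, 4.64 and 4.81 in unirradiated mp53 cells, and 6.92 and 5.14 in unirradiated WT cells. Of the genes behind the gate, Kit lay between 5.72 and 8.47, Slamf1 (CD150) between 4.24 and 5.86, near the lowest detected values of 4.61 to 5.09 of the arrays, and Ly6a (Sca-1) had no kept probe. The part of these values in the results below was not tested.

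All values are log2 intensities after background correction and quantile normalization over the 12 arrays, and each ± is an SD over 2 arrays. A probe's brightness depends on its own sequence, so levels are compared between arrays for one gene or one set of genes and never between genes. In a bulk sample, a higher level may come from more cells of one kind or from more RNA per cell, and these cannot be told apart. Differences were tested with limma on the 6 group means and adjusted by Benjamini-Hochberg over all 17046 kept probes. The count past an adjusted p of 0.05 was 0 members and 0 probes in all 11 comparisons, or 0% of probes. At an unadjusted p under 0.05, limma had 174 to 2359 probes per comparison. Values are therefore given as measured, and no member of the chain rose or fell beyond the threshold between groups.

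The mean over the 68 members was 8.42 and 8.52 on winner arrays, against 8.11 and 8.21 on loser arrays, so these groups did not overlap. It was 8.39 and 8.22 in non-competing irradiated mp53 cells, against 8.43 and 8.22 in non-competing irradiated WT cells. It was 7.76 and 8.26 in unirradiated mp53 cells, against 8.36 and 8.09 in unirradiated WT cells. The lowest of the 12 values, 7.76, was that of the dimmest array. The highest 2 values of the 12 were those of WT non-competing replicate 1, 8.43, and winner replicate 2, 8.52, with winner replicate 1 next.

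**Figure D1:**
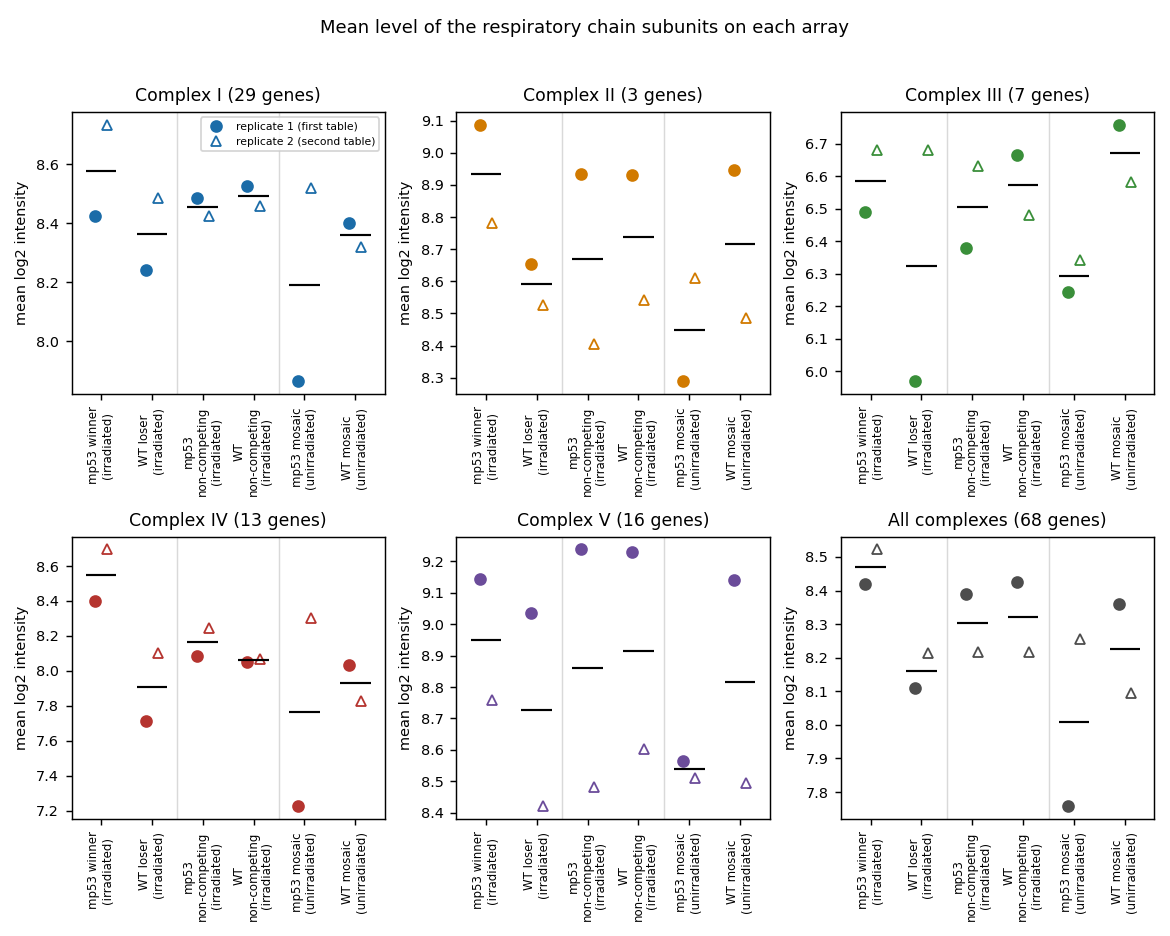
Mean log2 intensity of the members of each complex (y axis) on each array, by group (x axis). Circles are replicate 1, triangles replicate 2 and bars group means. In complex IV both winner arrays, at 8.40 and 8.70, lie above all 10 others, which does not hold without Cox6a2. In complex V the replicate 1 arrays lie above the replicate 2 arrays in every group.

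Complex IV, cytochrome c oxidase, averaged 8.55 ± 0.21 in winners and 7.91 ± 0.28 in losers, with 8.40 and 8.70 against 7.71 and 8.10 on single arrays. Non-competing mp53 cells had 8.09 and 8.24, non-competing WT cells 8.05 and 8.07, unirradiated mp53 cells 7.23 and 8.30, and unirradiated WT cells 8.03 and 7.83. Both winner arrays thus stood above the other 10, but not without Cox6a2, described next: the mean of the other 12 members was 8.46 and 8.83 in winners, against 7.96 and 8.41 in losers, and 8.60 on unirradiated mp53 replicate 2. Of its 13 members, 11 had a higher fitted value in winners than in losers, and the median difference was 0.57, with 0.60 within replicate 1 and 0.49 within replicate 2. Without Cox6a2 it was 0.52, with 10 of 12 higher. Over all 17046 probes, 48.4% had a higher fitted value in winners and the median difference was -0.02. Without the 2 dimmest arrays the median of complex IV was 0.21, or 0.26 with the table as a term as well. With array brightness as a covariate it was -0.36. In most groups replicate 2 was the brighter array, so that fit cannot separate brightness from the table.

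The widest difference in the chain was that of Cox6a2, the heart and skeletal muscle isoform of subunit VIa. It stood at 7.62 and 7.08 in winners, against 4.67 and 4.35 in losers. The other groups had 4.48 and 7.14 (non-competing mp53), 4.90 and 4.34 (non-competing WT), 4.47 and 4.70 (unirradiated mp53) and 5.74 and 4.29 (unirradiated WT). Both winner arrays and non-competing mp53 replicate 2 were thus well above the other 9 arrays. The probe was not detected on either loser array, so the difference is a bound: at least 5.59-fold higher in winners, from measured means of 7.35 ± 0.38 and 4.51 ± 0.23 (limma adjusted p = 0.303, unadjusted p = 0.00693). The same 3 arrays had the highest mean levels of 8 T and NK markers, 5.96, 6.45 and 6.38 against 4.66 to 5.75 on the other 9. So it was for 8 macrophage and dendritic markers, 7.53, 6.90 and 6.68 against 5.31 to 6.57, and for 14 erythroid markers, 9.01, 8.38 and 7.94 against 5.43 to 7.74. The lists of granulocyte and monocyte, B lineage, megakaryocyte, stromal and endothelial, and HSC identity markers did not rank these 3 arrays highest. The part of any of these cell types in the Cox6a2 values was not tested.

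Cox6a1, the isoform of subunit VIa found in most tissues, had 6.83 and 7.94 in winners, against 5.77 and 7.73 in losers. The groups overlapped, and its values followed the table: replicate 2 was the higher array in each of the 6 groups. Cox8a, the common isoform of subunit VIII, had 7.99 and 8.72 in winners against 7.32 and 8.14 in losers, with overlap. Its lowest value, 5.54, was on unirradiated mp53 replicate 1, the dimmest array. Cox4i1, the common isoform of subunit IV, was between 11.75 and 12.46 on all 12 arrays. Cox4i2, its hypoxia-related isoform, was detected on 3 arrays and lay between 4.38 and 4.82. Neither isoform of subunit IV separated winners from losers.

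The subunit VIb isoforms had 2 kept probes each. Cox6b1, the common isoform, had 9.71 and 10.31 in winners against 9.38 and 9.71 in losers, a difference of 0.47 ± 0.34 (SE). Cox6b2, the isoform known from testis, had 6.11 and 6.41 in winners against 4.44 and 6.46 in losers, a difference of 0.81 that came from replicate 1 alone. The second probe of Cox6b2, with a mean level of 4.64, gave -0.59, so its probes differed in sign, while that of Cox6b1 gave 0.17. Cox7a2, the liver-type isoform of subunit VIIa, had 8.0 and 8.14 in winners against 7.89 and 7.30 in losers. Cox7a2 was also the member of complex IV with the widest gap between genotypes before irradiation, at 7.39 and 7.2 in unirradiated mp53 cells against 8.23 and 8.25 in unirradiated WT cells. That difference was -0.95, with -0.85 and -1.05 within the tables (adjusted p = 0.869). Cox5a, a subunit on the matrix side, had 9.67 and 10.39 in winners against 8.63 and 9.52 in losers, without overlap, a difference of 0.95 ± 0.62 (SE).

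**Figure D2:**
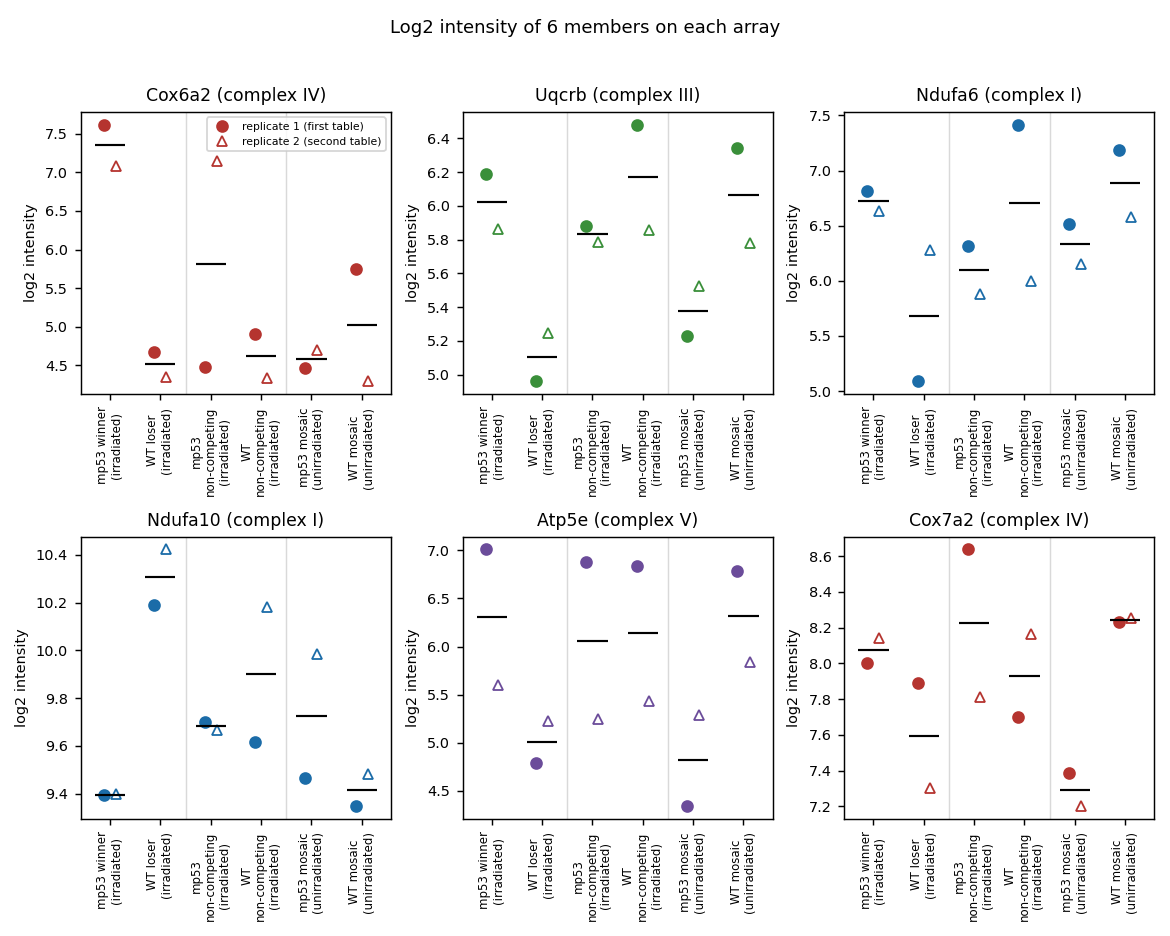
Log2 intensity (y axis) of 6 members on each array, by group (x axis), with circles for replicate 1, triangles for replicate 2 and bars for group means. Cox6a2 is above 7 on both winner arrays and on 1 non-competing mp53 array. Uqcrb is lowest in losers and unirradiated mp53 cells, and Ndufa10 is highest in losers.

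Complex I, NADH dehydrogenase, averaged 8.58 ± 0.22 in winners and 8.36 ± 0.17 in losers, and its arrays overlapped between these groups. In the other groups it averaged 8.46 ± 0.04 (non-competing mp53), 8.49 ± 0.05 (non-competing WT), 8.19 ± 0.46 (unirradiated mp53) and 8.36 ± 0.06 (unirradiated WT). Of its 29 members, 22 had a higher fitted value in winners than in losers, with a median of 0.19. Within the tables that median was 0.10 and 0.22. Without the 2 dimmest arrays it was -0.05, and 0.12 with the table as a term as well. The 8 detected subunits of the Ndufb family, which belong to the membrane arm, had 7 higher and a median of 0.35. The 5 core subunits Ndufv1, Ndufv2, Ndufs3, Ndufs7 and Ndufs8, which carry the cofactors or frame the electron path of the matrix arm, had 3 higher and a median of 0.25. The other 16 accessory subunits had 12 higher and a median of 0.12.

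Ndufa6 and Ndufa10 were the members of complex I that stood apart. Ndufa6, an accessory subunit of the LYR protein family, had 6.81 and 6.63 in winners against 5.09 and 6.28 in losers, a difference of 1.04 ± 0.54 (SE; adjusted p = 0.467). Outside these groups, non-competing WT replicate 1 at 7.41 and unirradiated WT replicate 1 at 7.19, were higher than the winners. Ndufa10, an accessory subunit of the membrane arm with a kinase-like fold, went the other way, with 9.39 and 9.40 in winners against 10.19 and 10.42 in losers. The other groups had 9.70 and 9.67 (non-competing mp53), 9.62 and 10.18 (non-competing WT), 9.47 and 9.98 (unirradiated mp53) and 9.35 and 9.48 (unirradiated WT). Both loser arrays were above the other 10, by a narrow margin over the 10.18. The difference was -0.91 ± 0.28 (SE; unadjusted p = 0.0112, adjusted p = 0.305). A second probe of Ndufa10, with a mean level of 4.71, gave 0.73, so its probes differed in sign.

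Ndufa6 was higher, and Ndufa10 lower, in winners without overlap against losers, against non-competing mp53 cells and against unirradiated mp53 cells. Of all probes, 6.41% were higher and 6.67% lower in this way, so 1 member of 68 in each direction is below that background. Ndufa1, a small membrane subunit encoded on the X chromosome, had 11.04 and 11.60 in winners against 10.26 and 10.86 in losers, and 9.25 and 10.93 in unirradiated mp53 cells. Ndufb2 of the membrane arm had the widest genotype gap of complex I before irradiation, with 4.27 and 5.31 in unirradiated mp53 cells against 6.38 and 5.51 in unirradiated WT cells. That difference was -1.16, and under median scaling of the arrays it was 0.10, where the median of all probes was 0.97. Ndufa13, also known as a cell death regulator, stayed between 11.87 and 12.46 on all arrays. Ndufa4, now placed with complex IV by some authors, had 9.97 and 9.84 in winners against 10.02 and 10.23 in losers.

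Complex II, succinate dehydrogenase, is also an enzyme of the tricarboxylic acid cycle. Its 3 measured members did not move as a unit. Sdhc, a membrane anchor, had 10.19 and 9.96 in winners, against 10.25 and 10.60 in losers, lower without overlap, a difference of -0.35. Sdhd, the other anchor, had 9.17 and 8.01 in winners, against 8.54 and 6.75 in losers. Within each table the winner array was higher, by 0.63 and by 1.26, while the arrays of the groups overlapped.

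For Sdhd the difference of 0.95 had an SE of 0.96 on the 6 group means and of 0.23 with the table as a term (unadjusted p = 0.00352, adjusted p = 0.138). Its other values were 8.85 and 7.22 (non-competing mp53), 9.25 and 7.72 (non-competing WT), 8.71 and 7.33 (unirradiated mp53) and 9.26 and 7.47 (unirradiated WT). Sdhb, the iron-sulfur subunit, had 7.90 and 8.38 in winners, against 7.17 and 8.23 in losers. Its other values were 7.57 and 7.96 (non-competing mp53), 7.35 and 7.60 (non-competing WT), 5.75 and 7.80 (unirradiated mp53) and 7.49 and 7.68 (unirradiated WT). The value of 5.75 was on the dimmest array and stood apart from the other 11.

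Complex III, the cytochrome bc1 complex, averaged 6.59 ± 0.14 in winners and 6.32 ± 0.50 in losers. The other groups averaged 6.51 ± 0.18 (non-competing mp53), 6.57 ± 0.13 (non-competing WT), 6.29 ± 0.07 (unirradiated mp53) and 6.67 ± 0.12 (unirradiated WT). Unirradiated mp53 arrays, at 6.24 and 6.34, were below unirradiated WT arrays, at 6.76 and 6.58, and all 7 members had a lower fitted value there, with a median of -0.32. Within the tables that median was -0.64 and -0.09. Over all probes, 52% had a lower fitted value in unirradiated mp53 cells.

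Uqcrb, the ubiquinone-binding subunit, was the clearest member of complex III. It had 6.19 and 5.86 in winners, against 4.96 and 5.25 in losers. Non-competing mp53 cells had 5.88 and 5.79, non-competing WT cells 6.48 and 5.86, unirradiated mp53 cells 5.23 and 5.52, and unirradiated WT cells 6.34 and 5.78. Losers and unirradiated mp53 cells were thus the 4 lowest arrays of the 12. The difference between winners and losers was 0.92 ± 0.31 (SE; unadjusted p = 0.0177, adjusted p = 0.334), and it was -1.07 between losers and non-competing WT cells (adjusted p = 0.992). Under median scaling the first was -0.017, where the median of all probes was -1.09. Uqcrc2, a core protein, had 9.82 and 9.83 in winners against 10.03 and 10.22 in losers, and lay between 9.67 and 10.22 on all arrays. Uqcrq, a small subunit, had the widest spread, 6.70 and 10.73 on the 2 arrays of unirradiated mp53 cells alone.

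Complex V, the ATP synthase, averaged 8.95 ± 0.27 in winners and 8.73 ± 0.43 in losers. It averaged 8.86 ± 0.53 in non-competing mp53 cells and 8.92 ± 0.44 in non-competing WT cells, and 8.54 ± 0.04 in unirradiated mp53 cells and 8.82 ± 0.46 in unirradiated WT cells. Unirradiated mp53 arrays, at 8.56 and 8.51, were below both winner arrays, at 9.14 and 8.76, and below both non-competing WT arrays, while winners and losers overlapped. Of its 16 members, 9 had a higher fitted value in winners than in losers, with a median of 0.19 that was -0.12 within replicate 1 and 0.25 within replicate 2. The 5 subunits of the catalytic F1 head had 3 higher and a median of 0.16. The c-ring genes and the peripheral stalk each had 1 of 3 higher, and the 5 small membrane subunits 4 of 5 with a median of 0.22.

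Atp5e, the epsilon subunit of the F1 stalk, had the widest difference of complex V. It had 7.01 and 5.60 in winners, against 4.79 and 5.23 in losers. Non-competing mp53 cells had 6.88 and 5.24, non-competing WT cells 6.84 and 5.43, unirradiated mp53 cells 4.35 and 5.29, and unirradiated WT cells 6.79 and 5.84. Within replicate 1, losers and unirradiated mp53 cells were low and the other 4 groups high. Within replicate 2 all 6 lay between 5.23 and 5.84. Both low arrays are the 2 dimmest, and the difference of 1.29 had an SE of 0.74 (adjusted p = 0.51).

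The c-ring of the ATP synthase is made of identical subunits from 3 genes. Atp5g3 stayed between 11.89 and 12.13 on all 12 arrays. Atp5g2 had 8.06 and 8.11 in winners, against 8.19 and 8.81 in losers, and 9.04 and 8.48 in unirradiated mp53 cells, against 8.01 and 7.97 in unirradiated WT cells. Atp5g1 had 7.43 and 8.26 in winners, against 7.0 and 8.19 in losers. The differences between winners and losers were 0.25 for Atp5g1, -0.41 for Atp5g2 and -0.04 for Atp5g3, with adjusted p-values of 0.614 to 0.954. Atp5b, the catalytic beta subunit, had 12.16 and 13.40 in winners against 12.36 and 12.89 in losers.

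Across the 68 members, the difference between winners and losers had a median of 0.25, and 49 were higher and 19 lower, where 48.4% of all probes were higher. That median was 0.21 within replicate 1 and 0.22 within replicate 2. Of the 51 members detected on all arrays, 36 were higher, with a median of 0.22. Of the 5460 probes detected on all arrays, 1985 were higher, with a median of -0.25. In both tables alike, 34 of the 68 members were higher and 11 lower, where 35.5% of all probes were higher and 38% lower. Without overlap, 13 were higher and 6 lower, shares close to or below the 23.3% and 25.9% of all probes. At an unadjusted p under 0.05, 2 members were higher (Cox6a2 and Uqcrb) and 1 lower (Ndufa10), against 6.15% and 5.89% of probes. The median of the 68 depended on which arrays entered: it was -0.044 without loser replicate 1 and 0.45 without winner replicate 1. Without the 2 dimmest arrays and with the table as a term it was 0.11. Once array brightness entered the fit it was -0.32, but brightness mostly went with the table, so that fit cannot separate them.

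**Figure D3:**
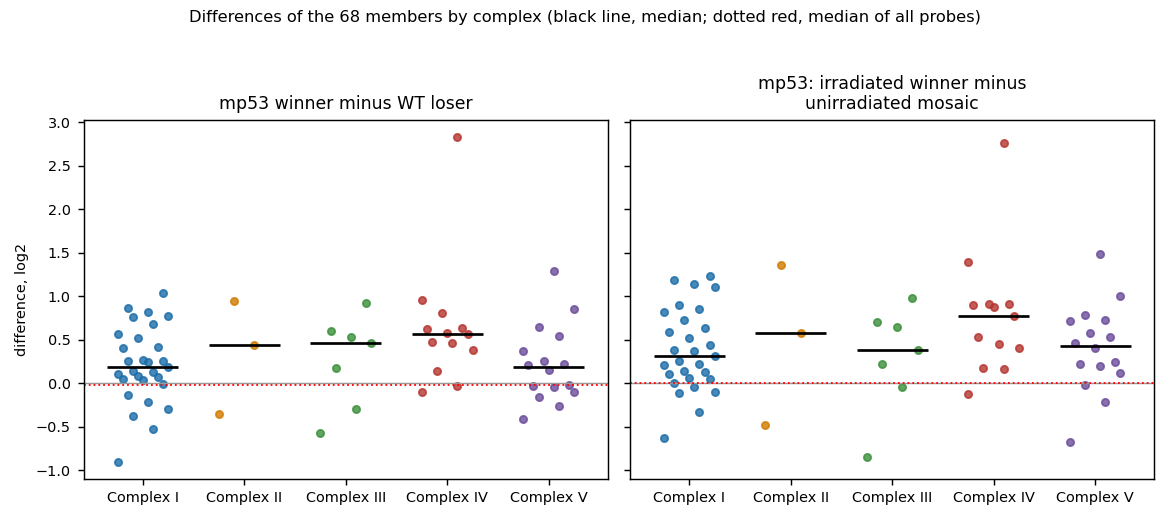
Difference in log2 intensity (y axis) of each member by complex (x axis), for winners minus losers (left) and winners minus unirradiated mp53 cells (right). Black bars are medians over the members and the dotted line is the median of all probes. Medians are 0.19 to 0.57 on the left and 0.32 to 0.78 on the right, and Cox6a2 is the highest point on each side. Without the 2 dimmest arrays, the left medians were -0.05 (I), -0.09 (II), -0.03 (III), 0.21 (IV) and -0.05 (V). The right medians were then -0.0085 (I), 0.34 (II), 0.17 (III), -0.022 (IV) and -0.035 (V). With the table as a term as well, they were 0.03 to 0.26 on the left and 0.07 to 0.50 on the right.

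Winners and losers were also set against irradiated cells of their own genotype that did not compete. Winners minus non-competing mp53 cells had a median of 0.14, with -0.02 and 0.27 within the tables, and 43 of 68 members higher, against 44.3% of all probes; without winner replicate 2 it was -0.040. Complex IV had a median of 0.39 (0.075 and 0.51 within the tables), with 11 of 13 higher, and complex II one of 0.38 (0.32 and 0.42). Losers minus non-competing WT cells had a median of -0.12, with -0.26 and 0.04 within the tables, and 26 of 68 higher, against 52.7% of probes. Without loser replicate 1 it was 0.079. Complex III had the lowest median there, -0.26, with -0.79 and 0.05 within the tables. Non-competing mp53 minus non-competing WT cells had a median of -0.03, with 32 of 68 higher, against 50.8% of probes. The interaction of competition with genotype, the first of these differences minus the second, had a median of 0.18. Uqcrb had 1.26 in it (limma unadjusted p = 0.0208, adjusted p = 0.685) and Ndufa6 1.65.

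Irradiation was compared within each genotype. In mosaic mice the irradiated cells had also competed, so irradiation and competition cannot be told apart there. In mp53 cells of mosaic mice, winners minus unirradiated cells had a median of 0.42, with 0.46 and 0.25 within the tables, and 56 of 68 members higher, against 50.2% of probes. By complex the medians were 0.32 (I), 0.57 (II), 0.39 (III), 0.78 (IV) and 0.43 (V). Cox6a2 was at least 5.44-fold higher in winners (means 7.35 ± 0.38 and 4.59 ± 0.17, adjusted p = 0.385). Atp5e was higher by 1.49, Sdhb by 1.36 and Ndufa1 by 1.23, with adjusted p-values of 0.441 to 0.461. Uqcrh, the hinge protein of complex III, had 5.94 and 6.92 in winners against 4.41 and 6.49 in unirradiated mp53 cells, a difference of 0.98 that was -0.062 without the dimmest array.

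Without the 2 dimmest arrays and with the table as a term, the median of winners minus unirradiated mp53 cells was 0.12. That of complex IV was 0.13. The values also depended on which array of the unirradiated mp53 pair entered. Its replicate 1 is the dimmest array of the series. Without it the median was 0.0024 and that of complex IV -0.022, with only replicate 2 left to set against winners of both tables. Without its replicate 2, which leaves the dimmest array as the lone unirradiated sample and assumes it to vary like the other groups, the median was 0.57, and limma called 1172 of 17046 probes and 4 members. These were Cox8a (2.82, adjusted p = 0.0352), Sdhb (2.38, adjusted p = 0.0418), Ndufa7 (2.47, adjusted p = 0.0401) and Cox5a (1.95, adjusted p = 0.0488). Once array brightness, which mostly went with the table, entered the fit, the median was -0.074.

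In WT cells of mosaic mice, losers minus unirradiated cells had a median of -0.09, and 30 of 68 members were higher, against 48.8% of probes. Without loser replicate 1 it was 0.19. Without overlap, 14 members were higher and 5 lower, against 18.8% and 15.8% of probes. Complex III had -0.29. Uqcrb was lower by 0.96 (unadjusted p = 0.0147, adjusted p = 1) and Ndufa10 higher by 0.89 (unadjusted p = 0.0125, adjusted p = 1). Ndufa6, at 5.09 and 6.28 against 7.19 and 6.58, and Atp5e, at 4.79 and 5.23 against 6.79 and 5.84, were among the 5 lower in losers without overlap. In cells that had not competed after irradiation, the median was 0.30 in mp53, with 0.50 and -0.09 within the tables and 51 of 68 higher, against 52% of probes, and it was -0.038 without the dimmest array. In WT it was 0.07, with 0.12 and 0.07 within the tables and 44 of 68 higher, against 51.3%. The unirradiated groups in these 2 comparisons came from mosaic mice, and the irradiated from mice of one genotype throughout.

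Before irradiation, mp53 minus WT cells of mosaic mice had a median of -0.25, with 19 of 68 members higher and 49 lower, against 48% and 52% of probes. The tables disagreed in sign, at -0.41 and 0.12, and without the dimmest array the median was 0.20. For complex IV the values within the tables were -0.85 and 0.73. The interaction of irradiation with genotype in mosaic mice had a median of 0.46, with 0.59 and -0.0048 within the tables. It was -0.27 without the 2 dimmest arrays, and 0.023 with the table as a term as well. Irradiated cells of mosaic mice had also competed, so irradiation and competition cannot be told apart in it. By limma, 7 members had an unadjusted p under 0.05 in that interaction: Cox6a2 (3.27), Atp5e (2.79), Ndufb2 (1.98), Uqcrb (1.61) and Cox7a2 (1.43) were positive, and Ndufa10 (-1.21) and Atp5g2 (-1.18) negative. The 5 positive and 2 negative members compare with 5.44% and 8.39% of all probes, so their summed share is below that background. The lowest of their adjusted p-values, by limma, was 0.299. These comparisons share groups, so their values are not independent of each other.

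**Figure D4:**
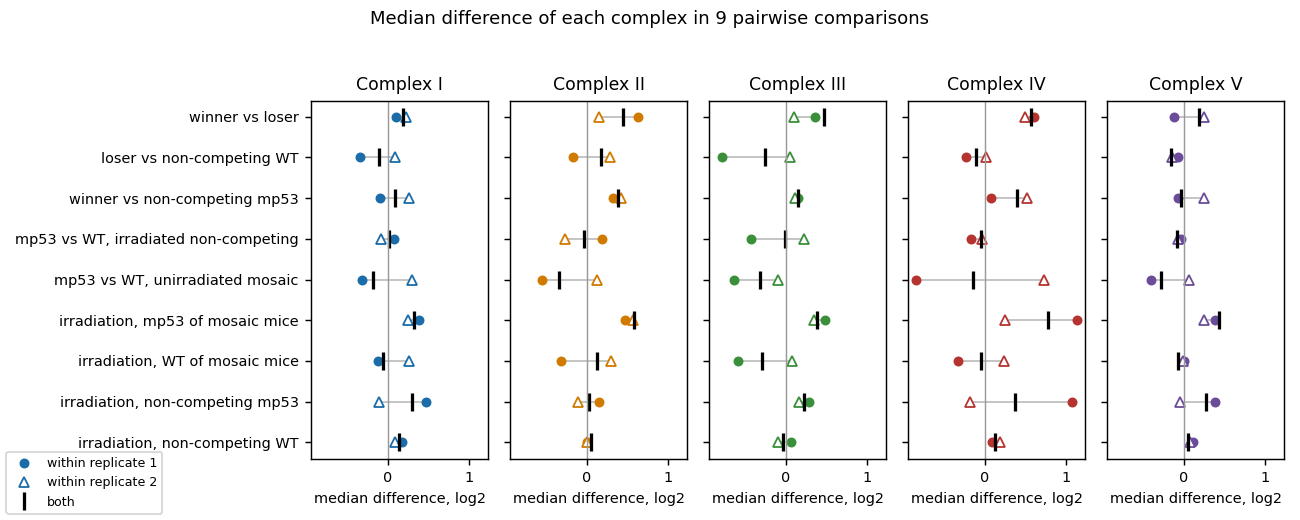
Median difference in log2 intensity (x axis) of the members of each complex in the 9 pairwise comparisons (y axis). Bars use both tables, circles replicate 1 alone and triangles replicate 2 alone. For winners against losers, complex IV has 0.60 and 0.49 in the separate tables, while for mp53 against WT before irradiation its values are -0.85 and 0.73.

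Over the 12 arrays, the mean levels of complexes I and IV went together most closely (r = 0.92), followed by complexes II and V (0.87). Complexes I and V (0.15) and IV and V (0.09) hardly went together. These r values describe arrays that share group, table and brightness, and carry no test.

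Many members differed between the 2 tables. With the table as a term, replicate 2 differed from replicate 1 at an adjusted p under 0.05 for 29 of 68 members (42.6%), 18 higher and 11 lower, against 20.4% of all probes. By complex these were 14 of 29 (I), 1 of 3 (II), 2 of 7 (III), 4 of 13 (IV) and 8 of 16 (V). For 32 members the table difference was larger in size than each of the 9 group differences, a count not made over all probes. The median size of the table difference was 0.67 for members and 0.34 for all probes. In 22 members, 11 in each direction, all 6 arrays of one table lay beyond all 6 of the other, where 11.2% of probes did so.

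Atp5k, the e subunit of the ATP synthase membrane part, was the widest, at 6.74 ± 0.37 in replicate 2 and 9.79 ± 0.17 in replicate 1 (SD, n = 6 each; difference -3.05, limma adjusted p = 8.56e-05). Cox7b, a small membrane subunit of complex IV, was at 5.30 ± 0.45 in replicate 2 and 8.11 ± 0.22 in replicate 1 (-2.80, limma adjusted p = 0.000229). Ndufb4 (-2.70), Atp5md (-2.67), Atp5l (-2.45) and Atp5pb (-1.97) were lower in replicate 2 as well. Cox7c (1.42), Cox6a1 (1.39) and Ndufb3 (1.35) were higher in it.

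Where a gene had several probes, the probes often differed in their table difference. Another probe of Atp5k gave 0.07 in place of -3.05, another of Atp5pb 0.04 in place of -1.97, another of Atp5a1 0.34 in place of -1.43, and another of Atp5l 0.86 in place of -2.45, with both Atp5l probes past the threshold in opposite directions. For Ndufv2 the unused probe gave -2.91 and the one used -0.04. The probes of Cox6a1 (1.34 and 1.39) and of Cox7c (1.003 and 1.42) gave like values. For Atp5k, the second probe was higher in winners than in losers by 1.22 (unadjusted p = 0.00254, adjusted p = 0.288), where the one used gave 0.38 ± 1.85 (SE). Among the 15 members measured by several probes, the sign of the difference between winners and losers was mixed in 5.

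**Figure D5:**
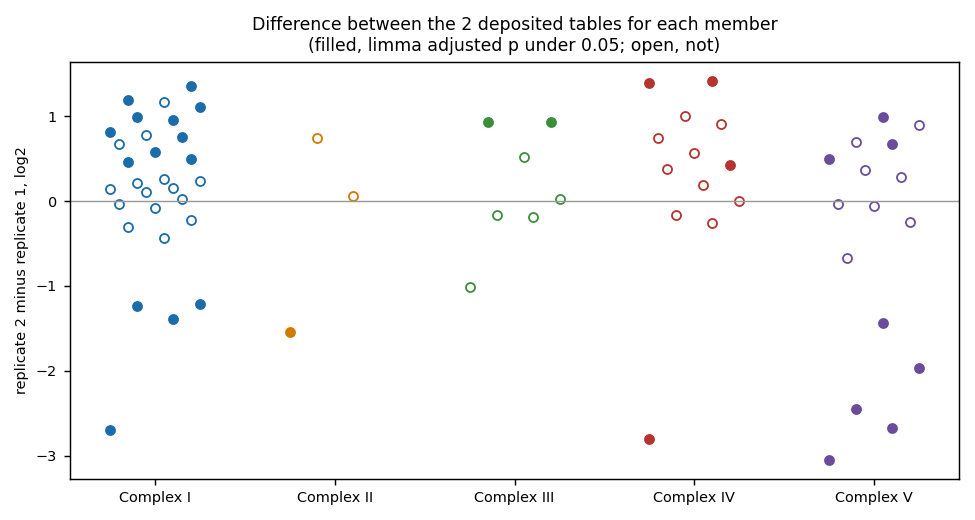
Difference in log2 intensity between replicate 2 and replicate 1 (y axis) for each member, by complex (x axis). Filled points have a limma adjusted p under 0.05, which is 29 of 68 members. Atp5k is the lowest at -3.05 and Cox7c the highest at 1.42.

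Many nuclear genes of the chain are known to be driven by NRF1, by ETS-family factors such as NRF2 and by YY1. Promoters of 250 bases before to 50 after the start site were found for 56 of the 68 members in a RefSeq table (GRCm38.p6). On either strand, the NRF1 letters GCGCANGCG were in 16 of 56 (28.6%), against 7.03% of 27025 genes. The ETS letters CCGGAAG were in 15 (26.8%), against 9.93%, and the YY1 letters AAGATGGCG in 6 (10.7%), against 1.64%. Overlapping matches of one motif were counted as 1. The ETS letters end and the YY1 letters begin with AAG, and the YY1 letters end and the NRF1 letters begin with GCG, so that such matches can overlap. Between winners and losers, the median difference was 0.41 with and 0.26 without the NRF1 letters, 0.47 with and 0.25 without the ETS letters, and 0.18 with and 0.39 without the YY1 letters. For winners minus unirradiated mp53 cells they were 0.46 and 0.49, 0.57 and 0.39, and 0.26 and 0.53. Higher in winners than in losers were 10 of 16 members with the NRF1 letters, against 34 of 40 without. For the ETS letters these counts were 13 of 15 and 31 of 41, and for the YY1 letters 5 of 6 and 39 of 50. These are descriptions without a test.

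The 250 bases before the start site are shown for 3 members that the values above turn on: Cox6a1, the partner isoform of Cox6a2; Atp5e, with the widest difference of complex V; and Atp5k, with the widest table difference. All lie on the minus strand and read 5′ to 3′ toward the start site, with NRF1 and ETS letters, on whichever strand, in capitals. Cox6a1 (chr5:115348959-115349208) has NRF1 letters 162 and 117 bases before the start and ETS letters 16 before. Atp5e (chr2:174464102-174464351) has ETS letters 102 before, and Atp5k (chr5:108434400-108434649) has NRF1 letters 50 before. Atp5k also has ETS letters 13 bases after the start, outside the stretch shown.
Cox6a1: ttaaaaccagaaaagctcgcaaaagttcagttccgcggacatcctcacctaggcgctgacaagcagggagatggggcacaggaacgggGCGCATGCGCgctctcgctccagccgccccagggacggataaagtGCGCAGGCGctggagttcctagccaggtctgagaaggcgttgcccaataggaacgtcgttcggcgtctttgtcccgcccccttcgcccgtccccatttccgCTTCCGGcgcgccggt
Atp5e: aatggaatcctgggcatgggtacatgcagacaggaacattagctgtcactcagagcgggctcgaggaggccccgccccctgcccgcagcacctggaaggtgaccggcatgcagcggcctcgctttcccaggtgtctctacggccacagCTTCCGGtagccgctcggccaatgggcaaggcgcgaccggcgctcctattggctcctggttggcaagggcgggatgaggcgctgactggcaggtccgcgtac
Atp5k: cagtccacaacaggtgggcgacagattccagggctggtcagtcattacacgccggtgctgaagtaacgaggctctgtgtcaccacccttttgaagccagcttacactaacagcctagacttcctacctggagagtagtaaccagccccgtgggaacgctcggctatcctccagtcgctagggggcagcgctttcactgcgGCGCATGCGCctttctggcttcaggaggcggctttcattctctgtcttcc
Cox6a1 and Atp5k, which both have NRF1 and ETS letters, differed in opposite directions between the tables, and a match says only that these letters are in the window.

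Genes around the chain were set beside it from lists of other mitochondrial and metabolic functions. Between winners and losers, 2 of 9 complex I assembly factors had a higher fitted value, with a median of -0.30. In this list and those below, 0 genes passed the adjusted p of 0.05. Ndufaf2, an assembly factor of complex I, averaged 8.81 ± 0.18 in winners and 9.998 ± 0.79 in losers. Assembly factors of the other complexes had 14 of 26 higher and a median of 0.05, and Bcs1l, which inserts the iron-sulfur protein of complex III, averaged 7.76 ± 0.10 in winners and 8.85 ± 0.26 in losers (adjusted p = 0.379).

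Electron and nucleotide carriers had 8 of 16 higher (median 0.06), biogenesis regulators 7 of 14 (0.03), the tricarboxylic acid cycle 8 of 15 (0.02), mitophagy and dynamics 4 of 13 (-0.05) and glycolysis 6 of 15 (-0.11). The largest differences in them were -0.88 for Dhodh, which feeds electrons to ubiquinone, -0.75 for Ppargc1a, a coactivator of mitochondrial biogenesis, -1.05 for Idh2 of the cycle, 1.2 for Fis1 of mitochondrial fission and -1.47 for Aldoc of glycolysis, with adjusted p-values of 0.425 to 0.63. These medians are set beside -0.02 for all probes and 0.25 for the chain, with no test between lists.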

How the data were processed

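Per the file headers, the deposited tables hold an intensity with its detection p-value per probe, not normalized, 1 table for each replicate number. Scanner software is not given in the sources used here. A deposited table of processed intensities served as an alternative. Per the labels' protocols, RNA of 200 sorted cells was amplified in rounds with RiboAmpHS and biotin-labelled. From these intensities, log2 values were computed with neqc (limma 3.58.1, R 4.3.3): normexp from detection p-values, offset 16, quantile normalization over 12 arrays. Repeated entries of 11 probes were averaged. The filter (detection p-value under 0.05 on at least 2 arrays) kept 17046 of 46632 probes. A gene kept through 1 group tends to be high there. Symbols came from the platform annotation, and all 68 members were found in RefSeq with 0 differing.

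The limma fit had 6 group means, 6 residual degrees of freedom and 11 comparisons (9 pairwise, 2 interactions), adjusted by Benjamini-Hochberg with a threshold of 0.05. Precision is limited by the number of arrays: the median SE of a difference was 0.577 for members and 0.421 for all probes. Replicate number and table coincide. Deviations from group means correlated over 0.1 between same-numbered arrays in 15 of 15 group pairs (0.101 to 0.622, median 0.531), so the numbers were taken to pair the arrays and a fit with the number as a block was run. Such a pair need not be of one animal. In replicate 1, Eif2s3y was 9.21 in winners and 4.33 in losers, so their difference there also goes with a difference in this Y chromosome gene. Where neither array of a group detected a probe, a bound was given, with each array's value raised to its lowest detected value where the probe lay below it. The script was tested on simulated data.

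Members were named by rule: the brightest per complex, the Sdh genes, isoform families and any member past the threshold. Members without overlap in every winner comparison were named too. The rule also took the largest difference per complex in 4 comparisons, and of all complexes in the others. The 4 were winner against loser, irradiation in mp53 and in WT cells of mosaic mice, and mp53 against WT before irradiation. From the other lists it took the largest difference between winners and losers. Not all of these members are given with the value of every array. Members outside this rule were named after their values were seen. Members, lists and tests were chosen with earlier results of these data known. Alternatives were the offset, median scaling, the processed table, a filter for all arrays, the mean over a gene's probes, the block, brightness as a covariate, and leaving out each array or the 2 dimmest arrays; the last with the block, and complex IV without Cox6a2, were added after seeing the data.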

Additional observations from a re-analysis of the deposited data

How the results depend on the processing

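With the replicate block, limma called 0 probes in all 11 comparisons, as without it, and the medians are the same by construction; it lowered the median SE of members to 0.319. Other settings called 0 probes apart from leaving out an array: without unirradiated mp53 replicate 2 there were 158 (mp53 against WT before irradiation), 1172 (irradiation in mp53 cells of mosaic mice), 111 (in non-competing mp53) and 1426 (interaction of irradiation with genotype, with Cox8a called), so these ranges are 0 to those counts, and without winner replicate 1 there was 1 in each winner comparison.

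The chain's median for winners against losers (0.25) was 0.22 at offset 50, 0.23 under median scaling, 0.21 in the authors' processed table, 0.22 over members detected on all arrays, 0.22 over the mean of a gene's probes, -0.044 without the 2 dimmest arrays, 0.11 without them with the replicate block, -0.32 with brightness, and -0.044 to 0.45 leaving out an array. Median scaling moved the median of all probes to -1.09 there. Other medians without the 2 dimmest arrays were 0.079 (losers against WT), -0.038 (irradiation, non-competing mp53), 0.20 (mp53 against WT before irradiation), 0.0024 (irradiation, mosaic mp53), 0.19 (mosaic WT), -0.27 (its interaction with genotype) and 0.045 (competition with genotype); adding the replicate block gave -0.016, -0.044 and 0.064 for the first 3, 0.054 for mosaic WT, 0.12 for mosaic mp53, 0.023 and 0.11 for the interactions. With brightness they were 0.092 (losers against WT), -0.083 (winners against mp53), 0.14 (before irradiation), -0.074 and 0.33 (irradiation, mosaic mp53 and WT), 0.065 and 0.19 (non-competing mp53 and WT), -0.59 and -0.23 (interactions). Median scaling gave 0.045 (mp53 against WT before irradiation), 0.14 (interaction of irradiation with genotype), 0.31 and 0.12 (irradiation, mosaic and non-competing mp53), -0.16 (losers against WT), 0.18 (winners against mp53), -0.092 (non-competing mp53 against WT), 0.20 (irradiation, mosaic WT), 0.34 (non-competing WT) and 0.27 (competition with genotype), which was 0.15 at offset 50, 0.21 in the processed table and 0.20 over a gene's probes; non-competing WT was 0.11 over members detected on all arrays. Leaving out an array gave 0.045 to 0.32 and 0.036 to 0.62 for the competition and irradiation interactions, 0.0024 to 0.57, -0.038 to 0.51, 0.033 to 0.14 and -0.14 to 0.19 for irradiation (mosaic mp53, non-competing mp53, non-competing WT, mosaic WT), -0.20 to 0.079 for losers against WT, -0.028 to 0.055 for non-competing mp53 against WT, -0.39 to 0.20 before irradiation and -0.040 to 0.14 for winners against mp53.

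The 27 results of named members had 255 values in the settings other than leaving out an array. Of these values, 0 passed the threshold and 10 turned in sign. Under median scaling, Uqcrb had -0.017 (winners against losers) and 0.12 (irradiation, WT), and Ndufb2 0.10 and Uqcrc1 0.22 before irradiation. The medians of all probes in these comparisons were then -1.09, 0.99 and 0.97. Without the 2 dimmest arrays, Uqcrh had -0.062 (irradiation, mp53), Sdhb 0.22 (0.058 with the replicate block) and Uqcrc1 0.23 before irradiation. With brightness, Uqcrh had -0.38 and Uqcrc1 0.23. Leaving out an array turned Cox6a2 (-0.14 to 2.52, non-competing mp53 against WT), Sdhd (-1.61 to 0.18, irradiation, WT), Uqcrh (-0.062 to 2.02), Sdhb (-1.83 to 0.22) and Uqcrc1 (-1.67 to 0.23). The causes were not tested, and the brightness fits cannot separate brightness from the table, as these mostly went together.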
